A study of Mus musculus with 22 samples.

Results

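Rhox5, a gene of the X-linked reproductive homeobox family, was read by 1 of the 22203 probe sets that the deposited table gives for 22 mouse colon tumours. The probe set was taken by its gene symbol. The gene was selected because its level differed between regimens in these same tumours, so its levels and group differences are given below as a description, without a test. All tumours came from male mice of the inbred strain FVB/N and had been induced by azoxymethane, a colon carcinogen that all 4 groups had received. The 6 obese sulindac tumours came from mice on a high-fat diet (60% of calories from fat) that were given sulindac, a nonsteroidal anti-inflammatory drug. The 5 formerly obese tumours came from mice switched from the high-fat to a low-fat diet, the 5 obese tumours from mice on the 60% high-fat diet without sulindac, and the 6 control tumours from mice on a low-fat diet with 10% of calories from fat. Each tumour carries its own mouse name, 1 of which (Mouse_X) has no number, so the spread within a group is the spread between mice. Whole tumours were measured, so for any gene fewer cells of a type and less RNA per cell cannot be told apart. Levels are on the deposited log scale, read as log2 from the range of the values, and folds rest on that reading. Levels of different probe sets depend on their probes and are not compared with each other.

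Rhox5, first described as Pem, encodes a homeodomain transcription factor and is the founding member of a cluster of homeobox genes that are expressed mainly in the testis, epididymis, ovary and placenta. In Sertoli cells of the mouse testis it is driven by an androgen-responsive proximal promoter. A distal promoter, which depends on ETS and SP family factors, drives it in ovary, placenta and tumour cell lines and is held silent by DNA methylation in most adult tissues. Rhox5 has been reported to repress the netrin receptor gene Unc5c and to act on metabolic genes in mouse testis.

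The sequence at the annotated start of Rhox5 is shown because the letters that ETS and SP factors and CpG methylation act on can be looked for in it. Whether it is the distal or the proximal promoter was not determined here. RefSeq places it on the X chromosome of GRCm38.p6 at chrX:37754358-37754657, on the plus strand, with 250 bases before the start of the gene and 50 after it.

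Rhox5 promoter: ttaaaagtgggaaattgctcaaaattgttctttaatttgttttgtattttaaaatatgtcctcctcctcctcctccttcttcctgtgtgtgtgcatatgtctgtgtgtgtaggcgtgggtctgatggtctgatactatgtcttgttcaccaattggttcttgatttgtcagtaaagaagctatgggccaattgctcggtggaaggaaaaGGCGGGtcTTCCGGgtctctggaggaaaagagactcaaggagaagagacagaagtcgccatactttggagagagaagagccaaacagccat

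The capitals mark GGCGGG, the core of an SP site, at bases 210 to 215, and TTCCGG, the ETS core CCGGAA read on the minus strand, at bases 218 to 223. The motifs do not overlap. Both strands were searched, and these letters were chosen for the search after the sequence had been seen. CCGGAA was found in 14.9% of 32851 promoters of the same length and in 8 of 28 Rhox promoters, and GGCGGG in 35.3% of all and in 3 of 28. The Rhox5 window held 5 CpG dinucleotides, against a median of 7 over all promoters. A match of letters is a description and no measure of binding, and methylation was not measured in these tumours.

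Rhox5 lay highest in obese tumours, and the groups from sulindac-treated, formerly obese and control mice lay close together. In obese sulindac tumours the levels were 6.76 (Mouse_124), 6.66 (Mouse_125), 6.44 (Mouse_X), 6.26 (Mouse_114), 6.23 (Mouse_129) and 5.21 (Mouse_131). In formerly obese tumours they were 6.26 (Mouse_152), 6.23 (Mouse_134), 6.19 (Mouse_150), 6.06 (Mouse_140) and 5.73 (Mouse_146). Obese tumours had 7.80 (Mouse_113), 7.23 (Mouse_101), 7.12 (Mouse_109), 6.91 (Mouse_107) and 6.59 (Mouse_96). In control tumours the levels were 6.61 (Mouse_20), 6.20 (Mouse_26), 6.17 (Mouse_32), 6.06 (Mouse_30), 5.89 (Mouse_17) and 5.30 (Mouse_27). Of the 5 obese tumours, 4 lay above every one of the 17 other tumours, which spanned 5.21 to 6.76. The fifth, Mouse_96, lay above all formerly obese tumours but below 1 control tumour and 2 obese sulindac tumours.

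**Figure D1:**
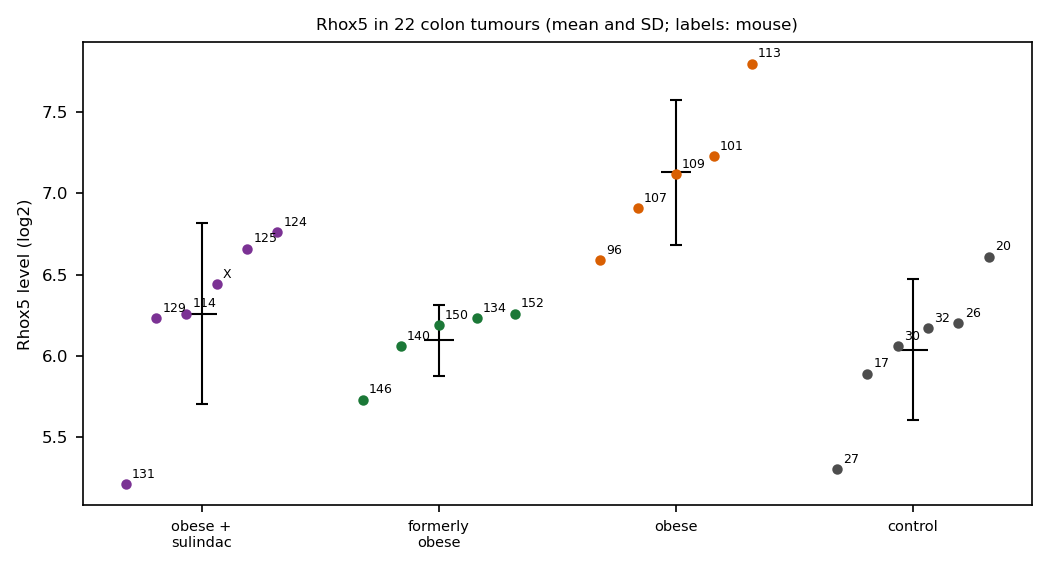
Level of Rhox5 (log2) in each of the 22 tumours by regimen, with the mouse name beside each point and a bar for the mean and SD of the group. Obese tumours span 6.59 to 7.80, and the other 3 groups together span 5.21 to 6.76.

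The mean level was 6.26 ± 0.56 in obese sulindac tumours (SD, n = 6), 6.09 ± 0.22 in formerly obese tumours (SD, n = 5), 7.13 ± 0.45 in obese tumours (SD, n = 5) and 6.04 ± 0.43 in control tumours (SD, n = 6). Obese minus control was 1.09 ± 0.26 (standard error of the 4-group limma fit), a 2.13-fold level. Formerly obese minus obese was -1.04 ± 0.27, or 0.488 times the obese level. Obese sulindac minus obese was -0.87 ± 0.26, or 0.547 times the obese level, and without Mouse_131 it was -0.66. These comparisons share the 5 obese tumours, so their sizes are not independent of each other. From the highest group mean to the lowest, the order was obese, obese sulindac, formerly obese and control. The step from obese to obese sulindac, 0.87, exceeded the pooled SD of those groups, 0.50. The steps from obese sulindac to formerly obese (0.17, pooled SD 0.42) and from formerly obese to control (0.06, pooled SD 0.34) were smaller than the spread between mice.

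Regimen accounted for 53.5% of the variance of Rhox5 over the 22 tumours and for 5.59% of it when the obese tumours were left out. The SD between mice of the same regimen was 0.44. Formerly obese tumours varied least and obese sulindac tumours most. In the obese sulindac group Mouse_131 lay at 5.21 and the other 5 tumours between 6.23 and 6.76.

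Limma, with a mean for each regimen and Benjamini-Hochberg adjustment over all probe sets, called 0 of 22203 probe sets changed at an adjusted p under 0.05 in each of the 3 comparisons, a background of 0%. Unadjusted p-values under 0.05 numbered 894 (4.03%) for obese against control, 1263 (5.69%) for formerly obese against obese and 1454 (6.55%) for obese sulindac against obese. By chance alone about 1 in 20 probe sets would have such a p-value. No gene described below is therefore called changed between regimens, and differences between regimens are given as values with their standard errors.

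The array measured 10 other Rhox genes, and 0 of 10 were called in any of the 3 comparisons. RefSeq lists 42 genes with a Rhox name, and only those with a probe set were analysed here. Across the 22 tumours their Pearson correlation with Rhox5 ran from -0.45 (Rhox6) to 0.23 (Rhox8), with a median of -0.28, against -0.01 over the 22202 other probe sets. The values of 4 of the 10 were above 0. The mean log2 level of the 10 genes correlated with Rhox5 at -0.48 over all tumours. After regimen means were subtracted the value was -0.38 (permutation test within regimens, adjusted p = 0.461). Without Mouse_113 and Mouse_131 these values were -0.33 and -0.12. Mouse_131, lowest for Rhox5, had the highest mean level of these genes. Obese minus control was above 0 for 3 of the 10, formerly obese minus obese for 8 and obese sulindac minus obese for 8. Over all probe sets but Rhox5 these counts were 10894, 11238 and 11472 of 22202. Rhox5 itself was above 0 in the first comparison and below 0 in the other two.

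Rhox1 averaged 4.90 ± 0.29 in obese tumours (SD, n = 5) and 5.46 ± 0.41 in control tumours (SD, n = 6), a difference of -0.55 ± 0.20. Rhox11 averaged 4.88 ± 0.25 in formerly obese tumours (SD, n = 5) and 4.43 ± 0.21 in obese ones (SD, n = 5), a difference of 0.45 ± 0.20. Rhox8 and Rhox9 shared the signs of Rhox5 in all 3 comparisons, with obese minus control at 0.10 ± 0.19 for Rhox8 and 0.26 ± 0.22 for Rhox9. Rhox9 nonetheless correlated with Rhox5 at 0.03 over the tumours and at -0.29 after the regimen means were subtracted.

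**Figure D2:**
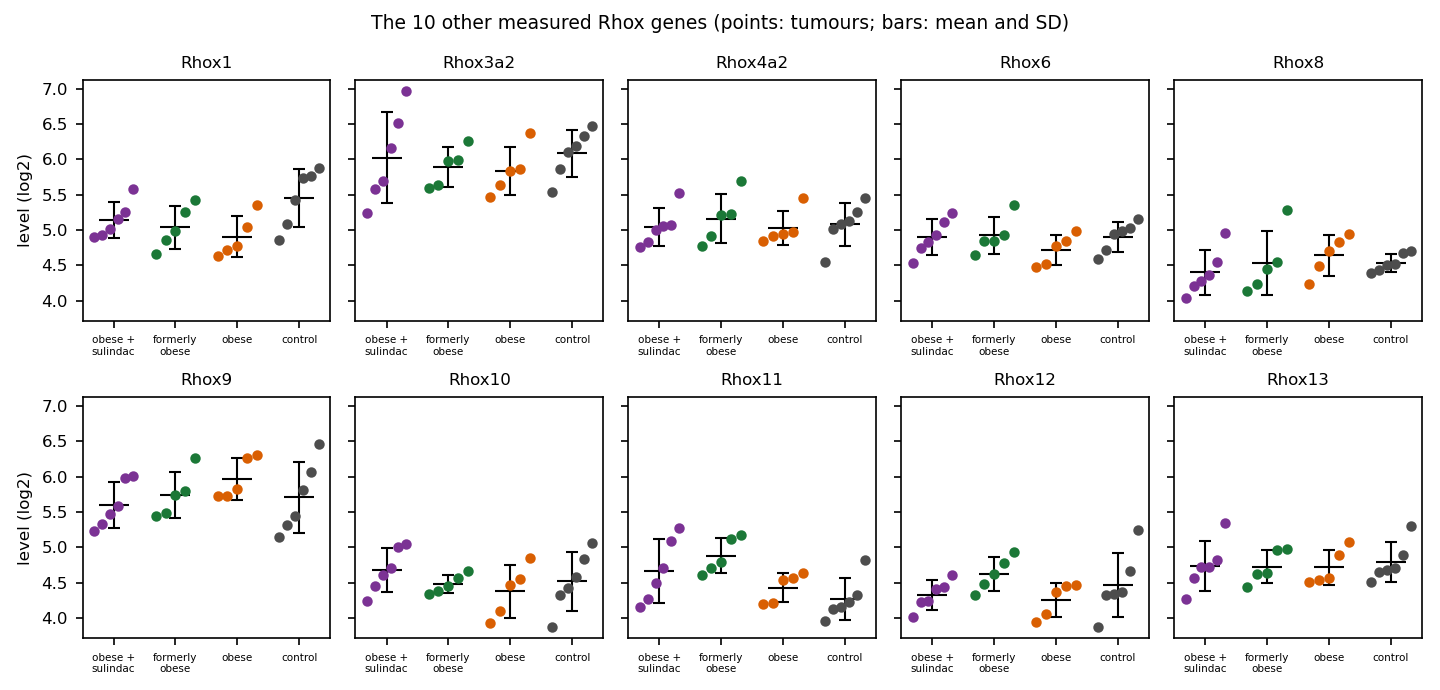
Level (log2) of each of the 10 other measured Rhox genes in every tumour by regimen, with bars for the mean and SD. The tumours of the 4 regimens overlap for every gene shown. For Rhox5, which was chosen for its difference between regimens, 4 of 5 obese tumours lay above all others and Mouse_96 overlapped with them.

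Of the genes that flank the Rhox cluster on the X chromosome, the 5 nearest measured ones on each side were examined. Their correlations with Rhox5 ran from -0.50 (Gm9) to 0.49 (C1galt1c1, which encodes a chaperone of mucin-type O-glycosylation), and 0 of 10 were called. C1galt1c1 averaged 10.79 ± 0.51 in obese tumours (SD, n = 5) and 10.22 ± 0.29 in control tumours (SD, n = 6), a difference of 0.57 ± 0.21. It averaged 10.18 ± 0.28 in obese sulindac tumours (SD, n = 6), a difference of -0.61 ± 0.21 from obese tumours. In formerly obese tumours it stayed close to the obese level, at 10.77 ± 0.31 (SD, n = 5), where Rhox5 was lower by 1.04. Lamp2, a lysosomal membrane protein gene beside the cluster, correlated with Rhox5 at -0.05 and Cul4b, a ubiquitin ligase scaffold gene, at 0.07.

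The genes whose levels were most like Rhox5 over the 22 tumours were ranked by Pearson correlation and are given as a description, since they were picked by that value and since part of it is the difference between regimens for which Rhox5 was chosen. All 22202 values ran from -0.76 to 0.79, and 95% of them lay between -0.45 and 0.44. Among named genes the highest belonged to Ccdc159, a coiled-coil protein gene, at 0.76, Pde11a, a cyclic nucleotide phosphodiesterase gene, at 0.74, and Nupr1, a stress-induced transcriptional regulator gene, at 0.74. Zfp979 followed at 0.71, then Ube2d3, Kng2, Chmp5 and Uqcrb at 0.69 to 0.68. Serp1, which protects newly made membrane proteins in the endoplasmic reticulum, reached 0.67 and Xbp1, which encodes a regulator of the unfolded protein response, 0.66. Tank and the mitochondrial gene Chchd3 reached 0.65 each. Another 4 probe sets in this range had no name or a predicted one. Spearman correlations of the 12 named genes ran from 0.43 (Chmp5) to 0.79 (Chchd3).

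The values behind such a correlation are given for Nupr1. In obese tumours its level was 15.43 in Mouse_113 and 14.16 to 14.52 in the other 4. It averaged 13.11 ± 0.99 in obese sulindac tumours (SD, n = 6), 13.69 ± 0.57 in formerly obese tumours (SD, n = 5), 14.62 ± 0.48 in obese tumours (SD, n = 5) and 13.47 ± 0.81 in control tumours (SD, n = 6). Its highest value was in the tumour with the highest Rhox5, and its lowest, 11.72, in Mouse_131, which had the lowest Rhox5. Without those 2 tumours, which lie farthest from the median Rhox5 level, the correlation of Nupr1 was 0.55.

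Xbp1 averaged 14.23 ± 0.32 in obese sulindac tumours (SD, n = 6), 14.55 ± 0.36 in formerly obese tumours (SD, n = 5), 14.90 ± 0.24 in obese tumours (SD, n = 5) and 14.21 ± 0.27 in control tumours (SD, n = 6). Its correlation with Rhox5 was 0.45 after regimen means were subtracted and 0.44 without Mouse_113 and Mouse_131. Ccdc159 and Pde11a kept 0.65 and 0.66 without those tumours, and 0.64 and 0.62 within regimens.

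At the low end stood Ddx19b, an RNA helicase gene of messenger RNA export, at -0.76, Csnk1d, a casein kinase gene, at -0.73, and Agap3, Wdr45b, Snai3 and Arl2bp at -0.70. Gcsh, of the glycine cleavage system, and Tmc7 lay at -0.69. Ddx19b averaged 10.33 ± 0.39 in obese sulindac tumours (SD, n = 6), 10.46 ± 0.16 in formerly obese tumours (SD, n = 5), 9.96 ± 0.33 in obese tumours (SD, n = 5) and 10.22 ± 0.34 in control tumours (SD, n = 6). Its lowest level, 9.50, was in Mouse_113 and its highest, 10.97, in Mouse_131. The membership of this ranking changed with the measure and with single tumours. Of the 20 named genes, 6 stayed in it with Spearman correlation, 3 with regimen means subtracted and 5 without Mouse_113.

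**Figure D3:**
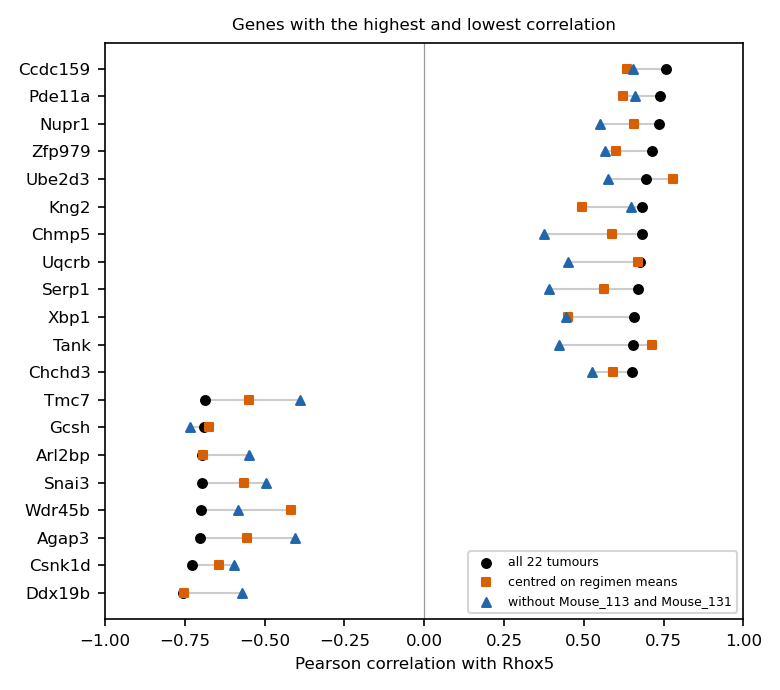
Pearson correlation with Rhox5 of the 12 named genes with the highest and the 8 with the lowest value over 22 tumours, beside the value after regimen means were subtracted and the value without Mouse_113 and Mouse_131. All 20 keep their sign, and without those tumours Chmp5 is at 0.38 and Serp1 at 0.39.

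Variation of Rhox5 between mice of the same regimen was not used to choose the gene, so it was tested. In limma, with Rhox5 as a continuous term beside the 4 regimens, 1 of 22202 probe sets was called at an adjusted p under 0.05, a background of 0.0045%. An unadjusted p under 0.05 was found for 1475 (6.64%), where chance gives about 1 in 20. The called probe set was Dgka, which encodes diacylglycerol kinase alpha, an enzyme that turns diacylglycerol into phosphatidic acid. Its slope was 1.28 ± 0.19 log2 units per log2 unit of Rhox5 (limma, adjusted p = 0.0351).

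The level of Dgka in obese sulindac tumours was 13.76 (Mouse_X), 13.55 (Mouse_124), 13.43 (Mouse_129), 13.41 (Mouse_125), 12.58 (Mouse_114) and 12.34 (Mouse_131). In formerly obese tumours it was 13.57 (Mouse_152), 13.47 (Mouse_134), 13.14 (Mouse_140), 12.92 (Mouse_150) and 12.88 (Mouse_146). Obese tumours had Dgka at 14.17 (Mouse_113), 13.42 (Mouse_101), 13.42 (Mouse_109), 13.16 (Mouse_107) and 12.11 (Mouse_96), and control tumours at 14.75 (Mouse_20), 13.59 (Mouse_30), 13.48 (Mouse_32), 13.26 (Mouse_26), 12.75 (Mouse_17) and 12.21 (Mouse_27). In formerly obese, obese and control tumours the mouse with the highest Rhox5 had the highest Dgka and the mouse with the lowest Rhox5 the lowest. In obese sulindac tumours Mouse_131 was lowest for both genes, while Mouse_124, highest for Rhox5, was second for Dgka.

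The group means of Dgka differed by less than the spread between mice. They were 13.18 ± 0.58 in obese sulindac tumours (SD, n = 6), 13.20 ± 0.31 in formerly obese tumours (SD, n = 5), 13.26 ± 0.74 in obese tumours (SD, n = 5) and 13.34 ± 0.86 in control tumours (SD, n = 6). Its correlation with Rhox5 was 0.85 after regimen means were subtracted and 0.57 over all tumours. Without Mouse_131 the slope was 1.58 ± 0.23 (limma, adjusted p = 0.0228). Leaving out each tumour in turn kept the slope between 1.13 and 1.58, but Dgka stayed under the threshold in only 7 of the 22 fits (limma, adjusted p from 0.0185 to 0.21). With quantile normalization the adjusted p in limma was 0.0812 and with array weights 0.059.

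Slopes were also ranked by p for each sign among named genes, and none of those that follow was called. Next among positive slopes were Fastkd1, Bco2, Prkg2, Arfip1 and Odf2l. First among negative slopes were Ap3b2, Klrb1c, Smpx, Qpctl, Nfs1 and Chil3. Prkg2 encodes a cyclic GMP-dependent kinase of the intestinal epithelium and had a slope of 1.60 ± 0.37 (limma, adjusted p = 0.481). Ap3b2, an adaptor subunit gene known from neurons, had a slope of -1.73 ± 0.31 (limma, adjusted p = 0.19), and its level in Mouse_131 was 8.56, against 4.28 to 4.68 in the other obese sulindac tumours.

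**Figure D4:**
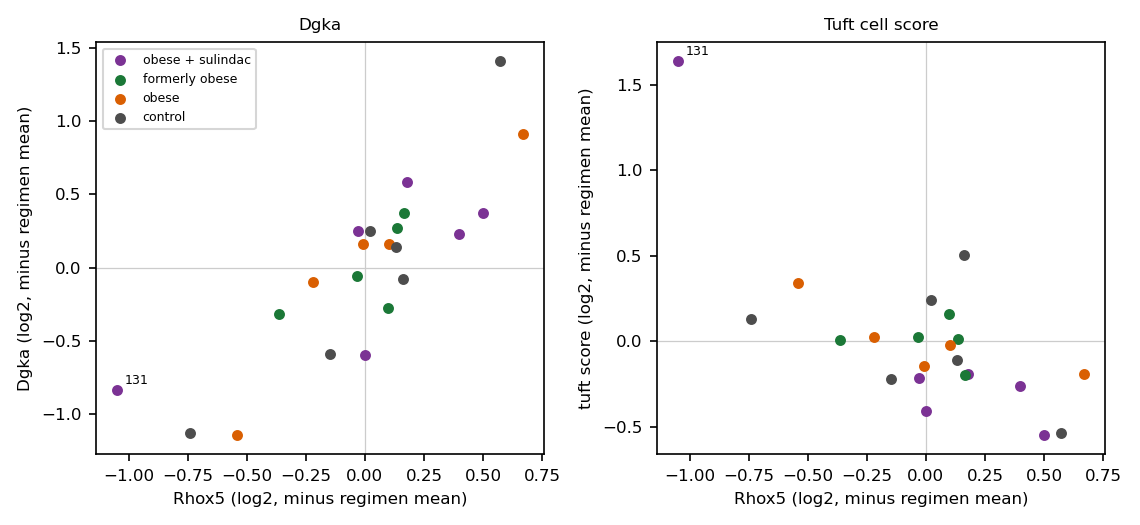
Dgka level (left) and tuft cell score (right) against Rhox5, each as log2 minus the mean of the tumour's regimen, with 1 point per tumour coloured by regimen. Dgka follows Rhox5 in all regimens (correlation 0.85), while Mouse_131 stands alone for the tuft score. Before the regimen means were subtracted, that score was 7.85 in Mouse_131 and 5.35 to 6.39 in the others.

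For groups of genes, the mean log2 level of the members was taken as a score in each tumour and correlated with Rhox5 after regimen means were subtracted. Across 30 lists, 0 were called at an adjusted p under 0.05 (two-sided permutation test within regimens, Benjamini-Hochberg over 30 lists), and 2 had an unadjusted p under 0.05, the tuft cell and netrin lists. Correlations over all 22 tumours without regard to regimen include the difference between regimens for which Rhox5 was chosen, so they are given as descriptions, without a test. The single genes named in these lists were also picked by the size of that value.

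Among ETS and SP factors and others reported to act on either of the Rhox5 promoters, correlations with Rhox5 over 22 tumours ranged from -0.36 (Etv4, an ETS factor gene) to 0.60 (Gabpb2, which encodes a subunit of GABP, the ETS factor reported to drive the distal promoter). Ets1 lay at 0.43 and Nr3c1, the glucocorticoid receptor gene, at 0.30. The levels of 11 of the 17 measured factors correlated above 0, with a median of 0.11, and 0 had a called slope. Gabpb2 averaged 9.29 ± 0.16 in obese sulindac tumours (SD, n = 6), 9.25 ± 0.24 in formerly obese tumours (SD, n = 5), 9.49 ± 0.31 in obese tumours (SD, n = 5) and 9.17 ± 0.20 in control tumours (SD, n = 6). The score of the factor list correlated with Rhox5 at -0.22 within regimens (permutation test, adjusted p = 0.769).

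The 22 measured genes for enzymes and readers of DNA methylation and for silencing complexes beside them had a median correlation of -0.03 and 0 called slopes. Dnmt3a, a de novo methyltransferase gene, lay at 0.38 and Dnmt3l, its germline cofactor gene, at -0.34, a value that was 0.06 without Mouse_113 and Mouse_131. After regimen means were subtracted, Dnmt3a lay at 0.25 and Dnmt3l at -0.66. The slope of Dnmt3l within regimens was -0.54 ± 0.15 (limma, adjusted p = 0.618). Its probe set averaged 4.98, and no background level could be set. Of 32 germline and pluripotency genes that DNA methylation keeps silent in adult tissue, 17 correlated above 0, with a median of 0.025, and Hormad1, a meiotic chromosome gene, was highest at 0.39. Their score correlated with Rhox5 at 0.06 within regimens (permutation test, adjusted p = 0.847). In obese minus control, 20 of the 32 lay above 0, with a median difference of 0.07 log2 units. Over all other probe sets 10894 of 22202 did, with a median of -0.0043.

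The tissues that normally express Rhox5 were represented by 13 measured genes of Sertoli and granulosa cells and 12 of trophoblast. The Sertoli and granulosa score correlated with Rhox5 at -0.14 within regimens (permutation test, adjusted p = 0.792) and the trophoblast score at 0.17 (permutation test, adjusted p = 0.792). Inhbb, an inhibin and activin subunit gene, reached 0.38 and Plac1, a placental gene, 0.41, while 0 members of either list had a called slope. Genes induced by androgen gave a score correlation of 0.16 (permutation test, adjusted p = 0.792). RAS and ERK pathway genes gave -0.06 within regimens (permutation test, adjusted p = 0.8).

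Of the 6 genes reported to respond to Rhox5 in mouse testis, 0 had a called slope. Unc5c, which Rhox5 is reported to repress there, correlated with Rhox5 at 0.24 in these tumours. The adipokine genes Lep and Adipoq lay at -0.59 and -0.17, and Ppargc1a, a coactivator gene of mitochondrial metabolism, at 0.26. Lep lay at -0.62 after regimen means were subtracted and at -0.37 without Mouse_113 and Mouse_131. The probe sets of Lep and Adipoq averaged 4.52 and 4.28, and no background level could be set. The 9 netrins and netrin receptors measured had a score correlation of 0.60 within regimens (permutation test, p = 0.013, adjusted p = 0.195) and of 0.53 there without Mouse_113 and Mouse_131. Over all 22 tumours the score had a Pearson correlation of 0.45 and a Spearman correlation of 0.52, and without Mouse_113 and Mouse_131 the Pearson value was 0.28. Of the 9, 7 correlated above 0, and the highest was Unc5d at 0.46. Unc5d varied widely within each regimen, with 9.13 in Mouse_113 and 4.69 in Mouse_96 among obese tumours.

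Unfolded protein response genes, of which Xbp1 is one, had 13 of 17 correlations above 0, among them Trib3 at 0.56, Atf4 at 0.47 and Ddit3 at 0.44. Their score correlated with Rhox5 at 0.17 within regimens (permutation test, adjusted p = 0.792) and at 0.28 over all tumours. Without Mouse_113 and Mouse_131 these values were -0.13 and 0.01, so the positive direction of the score rested on those 2 tumours. The single genes named here, picked by the size of their correlation, stayed above 0 without those tumours. Xbp1 lay at 0.44, Ddit3 at 0.38, Trib3 at 0.37 and Atf4 at 0.36. In obese minus control, 14 of the 17 lay above 0, with a median of 0.22, against 10894 of the 22202 other probe sets. In obese sulindac minus obese 3 of 17 did, with a median of -0.33, against 11472 of 22202. In formerly obese minus obese, 11 of 17 lay above 0, against 11238 of 22202, where Rhox5 was lower by 1.04. The list was chosen with earlier results of these data known, so these counts are a description.

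Cell type markers were examined because a whole tumour mixes epithelium, stroma and immune cells. The files give no detection call, so presence or absence could not be set for any marker, and the colon label could not be checked in this way. The tuft cell score, from genes of the chemosensory cells of the gut epithelium, had a correlation of -0.72 with Rhox5 within regimens (permutation test, p = 0.0068, adjusted p = 0.195). Mouse_131, lowest for Rhox5, had a tuft score of 7.85, and the other 21 tumours spanned 5.35 to 6.39. The defining tuft genes Pou2f3 and Trpm5 stood at 8.49 and 8.06 in that tumour, against at most 5.55 and 5.59 elsewhere, and 5 of the 8 measured tuft genes were highest there. Il25 was lowest there, at 3.93. Without Mouse_131 the correlation was -0.48 (permutation test, adjusted p = 0.476), and without Mouse_113 as well it was -0.43. Over all 22 tumours Pearson and Spearman correlations were -0.43 and -0.28, and the Pearson value was -0.06 without Mouse_113 and Mouse_131. Mouse_131 also had the highest mast cell score (10.85, against 7.38 to 10.44 elsewhere) and the lowest unfolded protein response score (11.90, against 11.93 to 12.72). The part of these markers in its Rhox5 level was not tested.

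Mouse_113, highest for Rhox5, stood apart in other markers. It had the lowest of 22 scores for goblet cells (9.73, against 10.37 to 14.40 elsewhere), for absorptive colonocytes (8.14, against 8.17 to 13.43), for enteroendocrine cells (5.59, against 5.67 to 8.68) and for squamous epithelium (5.52, against 5.76 to 7.55). Their part in the Rhox5 level of that tumour was not tested. Over all tumours the goblet score correlated with Rhox5 at -0.06 and the absorptive score at -0.04, and without Mouse_113 and Mouse_131 these values were 0.44 and 0.14. Within regimens the goblet score lay at 0.10 (permutation test, adjusted p = 0.8) and the absorptive score at 0.30 (permutation test, adjusted p = 0.461), and without those 2 tumours at 0.64 and 0.53. Without Mouse_113, obese minus control for Rhox5 was 0.92.

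The squamous score had a correlation of -0.45 with Rhox5 within regimens (permutation test, p = 0.0654, adjusted p = 0.461). Over all tumours it had the lowest Pearson correlation of the 30 lists, -0.54, with -0.39 by Spearman and -0.42 by Pearson without Mouse_113 and Mouse_131. All 9 of its genes correlated below 0, with a median of -0.13, from the keratin gene Krt4 at -0.67 to Sprr1a at -0.01. Krt4 averaged 7.67 ± 1.62 in obese sulindac tumours (SD, n = 6), 7.15 ± 1.08 in formerly obese tumours (SD, n = 5), 6.15 ± 0.71 in obese tumours (SD, n = 5) and 7.95 ± 1.04 in control tumours (SD, n = 6). Whether squamous tissue in some tumours has a part in the Rhox5 levels was not tested.

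Markers of lymphocytes and macrophages mostly correlated above 0. All 9 B and plasma cell genes, all 11 macrophage genes and 9 of 10 T cell genes correlated with Rhox5 above 0, with medians of 0.26, 0.18 and 0.28. Their scores had correlations of 0.28, 0.16 and 0.37 within regimens (permutation tests, adjusted p = 0.483, 0.792 and 0.461). Over all probe sets but Rhox5, 10693 of 22202 correlated above 0. Neutrophil and mast cell genes did so in 6 of 10 each. The neutrophil and mast cell scores lay at -0.31 and -0.10 within regimens (permutation tests, adjusted p = 0.668 and 0.8). Fibroblast genes were above 0 in 11 of 11 over all tumours with a median of 0.12, and their score lay at 0.08 within regimens (permutation test, adjusted p = 0.8). All 13 genes of dividing cells lay below 0, with a median of -0.13. Of the 12 stem cell and WNT genes measured, 3 correlated above 0, with a median of -0.15, and Lgr5 lay at 0.45 and Axin2 at -0.42.

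**Figure D5:**
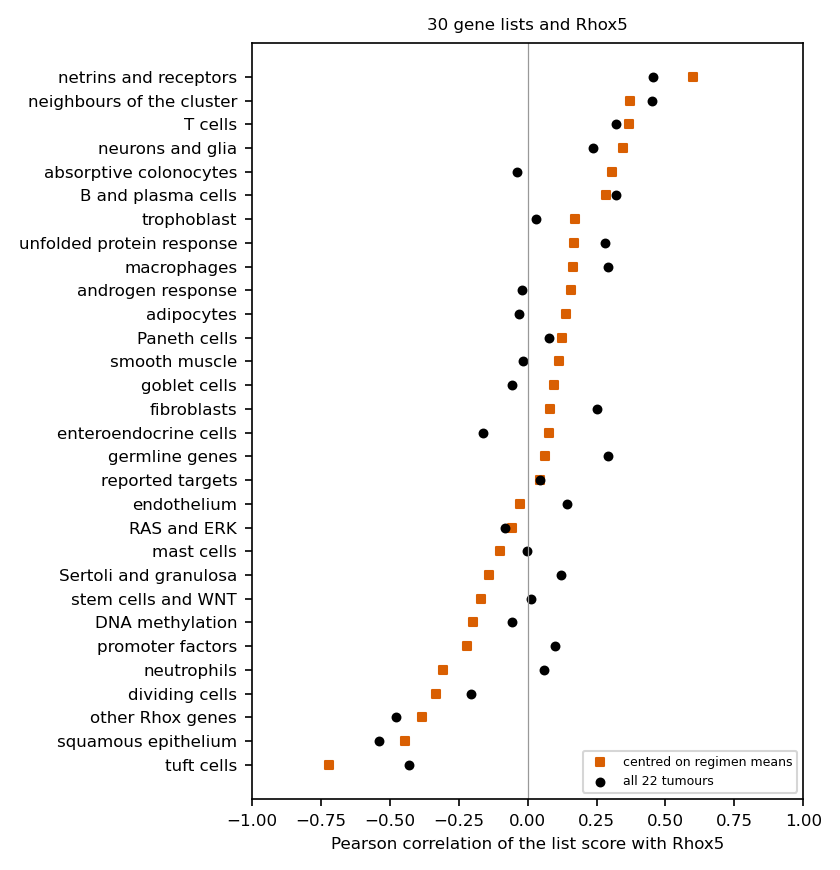
Pearson correlation of 30 gene list scores with Rhox5, over all 22 tumours (circles) and after regimen means were subtracted (squares). Within regimens the values run from -0.72 for tuft cells to 0.60 for netrins and their receptors, and 0 of 30 were called.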

How the data were processed

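Total RNA from 22 tumours was labelled with biotin and hybridised to Clariom S arrays, per the labels' protocols. The deposited values are log2 levels per probe set, with 2 decimals, made by the authors with Transcriptome Analysis Console 4.0, per the submitters' processing notes. Which background correction, normalization and logarithm were used is not stated in the labels, and base 2 was read from the range of 3.34 to 19.49. Array medians of 6.67 to 6.83 show a common scale. No raw scans, detection calls or scan dates were used, so neither a background level nor a batch could be set. Precision is limited by the number of arrays.

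Of 22203 probe sets, 19572 carried 1 gene symbol, 0 several and 2631 none. Genes of a list with no probe set under their symbol were not analysed here. A 4-group model and the slope on Rhox5 beside the regimens were fitted in R 4.3.3 with limma 3.58.1 on all probe sets without a filter. List scores were tested with 100000 permutations within regimens. Both were tested on simulated data. Alternatives were array medians subtracted, quantile normalization, array weights, a mean level of 6 or more, no regimen term, Spearman correlation, scaled members and each tumour left out.

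The named genes were the other Rhox genes, the 5 nearest measured genes on each side of the cluster, the 12 highest and 8 lowest correlations over 22 tumours, the 6 smallest p-values of each sign within regimens, and up to 4 genes per list by size of correlation. The gene and the lists were chosen with earlier results of these data known. The order of genes along the chromosome and the promoter come from RefSeq (GRCm38.p6). The labels name no build. No replicate numbers are shared between groups.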

Additional observations from a re-analysis of the deposited data

Results flagged for a closer look

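Over 43 genes in 4 regimens, 14 of 172 groups (8.14%) held a tumour that stood apart from the rest of its group by its gap relative to the range of the group, where chance gives about 1 in 20. Most of these genes were picked by their correlation with Rhox5 or their slope on it, so that rate does not hold for them. Rhox5 was 5.21 in the obese sulindac tumour Mouse_131, against 6.23 to 6.76 in the other 5. The same tumour had Gcsh at 12.46 (others 11.90 to 12.09), Ap3b2 at 8.56 (others 4.28 to 4.68) and Chil3, a macrophage gene, at 7.12 (others 5.31 to 5.95). The obese tumour Mouse_113 had Nupr1 at 15.43 (others 14.16 to 14.52), Serp1 at 14.51 (others 13.48 to 13.72), Tmc7 at 6.19 (others 7.62 to 8.01) and Klrb1c, a natural killer cell receptor gene, at 3.87 (others 4.63 to 4.86).

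The remaining values each came from another tumour. Kng2 was 6.12 in the formerly obese tumour Mouse_134 (others 5.22 to 5.45). Uqcrb was 17.30 in the obese sulindac tumour Mouse_125 (others 17.06 to 17.13). Csnk1d was 16.19 in the control tumour Mouse_27 (others 15.64 to 15.78), and Qpctl was 8.51 in the control tumour Mouse_20 (others 9.47 to 10.03). In obese tumours Ap3b2 was 6.01 in Mouse_96 (others 4.49 to 4.81) and Rhox4a2 was 5.46 in Mouse_101 (others 4.85 to 4.97). Their causes were not tested.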

How the results depend on the processing

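The 3 Rhox5 differences kept their sign under every scaling and with each tumour left out. They ran from 0.92 to 1.23 for obese minus control, -1.17 to -0.87 for formerly obese minus obese and -1.005 to -0.66 for obese sulindac minus obese. Rhox5 was chosen for a difference between regimens in these same tumours, so the kept signs are a description and no test. The count of probe sets with a slope on Rhox5 within regimens, 1, was 0 with quantile normalization, 0 with array weights, 0 with no regimen term, and 0 to 2 with each tumour left out. The count called for obese sulindac against obese was 0 to 1 with each tumour left out, 1 without obese Mouse_96. The number of lists called was 0 to 1: the tuft score was called without control Mouse_26 (-0.78, permutation test, adjusted p = 0.027) and the netrin score without obese sulindac Mouse_X (0.66, permutation test, adjusted p = 0.0078). Of the 20 genes most like Rhox5, 14 stayed with array medians subtracted and 5 to 17 with each tumour left out. The causes were not tested. No paired analysis was possible because the groups share no replicate numbers. Groups of 5 and 6 tumours and an unknown background level limit what dim probe sets can show.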
